A study of Homo sapiens with 2 samples.

Results

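The arms of the miR-193 and miR-365 hairpins were followed in small RNA libraries of MDA-MB-231, a human cell line of the basal, triple-negative type of breast cancer. The members were chosen by name, as both arms of the paralogous miR-193b/miR-365a and miR-193a/miR-365b clusters, which gave 8 of the 2656 mature microRNA names in the deposited count table. The cells had been transduced with an shRNA against ELOVL5 (shELOVL5), a fatty acid elongase, or with the control shRNA named shLuc, and both were grown in the same medium. There was 1 library per condition, so nothing could be set against the spread between cultures and no test was run. The labels' extraction text speaks of frozen tumor material, although every other label names the cultured line.

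A microRNA is cut from a hairpin whose 5p and 3p arms can each be loaded into Argonaute, and its bases 2 to 8, the seed, do most of the target recognition. The miR-193b/miR-365a cluster is known for its induction in brown fat, where work in mouse cells described it as promoting differentiation, although mice lacking the cluster were later described as forming brown fat. In breast cancer cells miR-193b is known as a repressor of PLAU, the urokinase plasminogen activator, and miR-365 is known to repress interleukin 6.

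The mature sequences are shown because the members' relations rest on them, with the seed in capitals. All 8 names matched RefSeq entries on GRCh38.p14.
hsa-miR-193b-3p: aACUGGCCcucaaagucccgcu
hsa-miR-193a-3p: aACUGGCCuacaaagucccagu
hsa-miR-365a-3p: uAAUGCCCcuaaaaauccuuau
hsa-miR-365b-3p: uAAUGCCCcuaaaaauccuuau
hsa-miR-365a-5p: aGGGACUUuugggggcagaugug
hsa-miR-365b-5p: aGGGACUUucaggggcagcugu
hsa-miR-193b-5p: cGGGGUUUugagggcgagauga
hsa-miR-193a-5p: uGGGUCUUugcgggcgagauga

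The 8 names carry 7 distinct sequences and 5 seeds. The miR-365a-3p and miR-365b-3p sequences are identical over 22 bases, so their reads cannot be assigned to a hairpin. The 3p arms of miR-193a and miR-193b share a seed and are identical at 18 of 22 positions, with the substitutions U9C, A10U, A20G and G21C (miR-193a base first, positions counted from the 5′ end). Their 5p arms are also identical at 18 of 22 positions, but the substitutions U1C, U5G, C6U and C11A include 2 within the seed, so these arms have different seeds. The miR-365a-5p and miR-365b-5p arms share a seed and differ by U10C, G11A and A19C over the 22 positions compared, and miR-365a-5p is 23 bases long. No other microRNA of the RefSeq table that was also in the count table had any of the 5 seeds.

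The hairpins are shown because the arm balance differs between them, with both mature arms in capitals. They are on the plus strand of GRCh38.p14.
hsa-mir-193b, chr16:14303967-14304049: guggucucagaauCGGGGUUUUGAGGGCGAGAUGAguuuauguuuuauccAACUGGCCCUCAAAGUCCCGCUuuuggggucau
hsa-mir-365a, chr16:14309285-14309371: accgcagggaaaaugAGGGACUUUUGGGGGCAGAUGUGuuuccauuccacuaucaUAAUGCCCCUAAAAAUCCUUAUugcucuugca
hsa-mir-193a, chr17:31559996-31560083: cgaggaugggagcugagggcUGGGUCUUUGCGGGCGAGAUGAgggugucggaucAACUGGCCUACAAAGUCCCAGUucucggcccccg
hsa-mir-365b, chr17:31575411-31575521: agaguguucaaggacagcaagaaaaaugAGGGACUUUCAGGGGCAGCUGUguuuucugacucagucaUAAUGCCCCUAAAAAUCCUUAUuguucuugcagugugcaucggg

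On chromosome 16 the hairpins lie 5235 bases apart, both in introns of the long non-coding gene MIR193BHG (GENCODE release 29). On chromosome 17 they lie 15327 bases apart. There the GENCODE annotation places no other gene over MIR193A, while MIR365B lies in the long non-coding gene AC003101.1, named MIR365BHG in RefSeq, and its 3′ end overlaps an annotated exon of that gene.

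The shELOVL5 library had a total of 6811811 microRNA counts, and the shLuc library had 7109272. Levels are given in CPM, counts per 1000000 after scaling with TMM factors. Ratios below are shELOVL5 over shLuc with a 95% interval that covers counting error only. The 4 microRNAs listed for basal or mesenchymal breast cancer lines had 2101146 counts in shELOVL5 and 2386552 in shLuc, against 2671 and 2091 for the 6 epithelial ones. Of the 5 blood cell markers, hsa-miR-144-3p and hsa-miR-223-3p had 0 counts in both libraries, and the list's sum was 52 counts in shELOVL5 and 4 in shLuc. hsa-miR-142-3p alone had 45 counts in shELOVL5 and 2 in shLuc. The 4 stromal markers summed to 48 counts in each library. The 4 liver, muscle and neuron markers summed to 69 counts in shELOVL5 and 135 in shLuc, with hsa-miR-124-3p at 0 in both and hsa-miR-1-3p at 14 and 80. The part of such RNA in the ratios below was not tested.

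All 8 arms were detected in both libraries, at low levels. Counting the shared miR-365-3p sequence once, the members held 1555 counts in shELOVL5 and 1398 in shLuc. In shELOVL5 this came to 0.0228% of the library (exact binomial interval 0.0217 to 0.0240%), and in shLuc to 0.0197% (0.0186 to 0.0207%). The miR-365-3p sequence made up 56.1% of the members' counts in shELOVL5 and 51.5% in shLuc.

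The 3p arm of miR-365 was the most abundant member. Under the name hsa-miR-365b-3p it was counted 872 times in shELOVL5 (126 CPM) and 720 times in shLuc (103 CPM). Under the name hsa-miR-365a-3p it had 870 counts in shELOVL5 and 719 in shLuc. The names thus differed by 2 counts or fewer and were treated as 1 measurement. Whether each read was counted under both names or reads were divided between them is not given in the sources used here. If they were divided, the level of the sequence would be the sum of both names, 1742 counts in shELOVL5 and 1439 in shLuc, and the members together would make up 0.0356% of the shELOVL5 library and 0.0298% of the shLuc library. hsa-miR-365b-3p stood at rank 144 of all names in shELOVL5 and 152 in shLuc.

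Next came the main arms of the miR-193 hairpins. hsa-miR-193b-3p, the arm described as repressing PLAU, had 342 counts in shELOVL5 (49.6 CPM) and 291 in shLuc (41.4 CPM). hsa-miR-193a-5p, known as a repressor of the p53 relative TP73, had 241 counts in shELOVL5 (34.9 CPM) and 262 in shLuc (37.3 CPM). The exact Poisson intervals of these 2 arms were apart in shELOVL5, at 307 to 380 counts for hsa-miR-193b-3p and 212 to 273 for hsa-miR-193a-5p. They overlapped in shLuc, at 259 to 326 and 231 to 296, so their order was not resolved there.

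The other arms were rare. hsa-miR-365a-5p had 34 counts in shELOVL5 (4.93 CPM) and 52 in shLuc (7.41 CPM). hsa-miR-365b-5p had 40 counts in shELOVL5 (5.80 CPM) and 43 in shLuc (6.12 CPM). These arms tell the miR-365 loci apart, and their Poisson intervals overlapped in each library, at 23.5 to 47.5 counts for hsa-miR-365a-5p and 28.6 to 54.5 for hsa-miR-365b-5p in shELOVL5. hsa-miR-193b-5p had 13 counts in shELOVL5 and 17 in shLuc. hsa-miR-193a-3p, which shares its seed with hsa-miR-193b-3p, had 13 counts in each library, so the order of these last arms was not resolved.

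**Figure D1:**
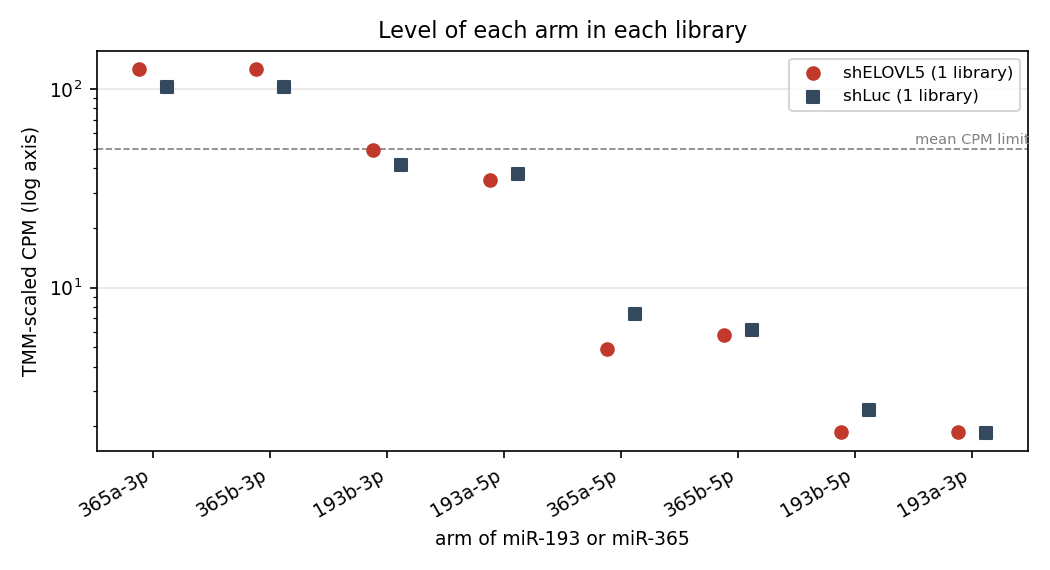
TMM-scaled CPM (log axis) of each miR-193 and miR-365 arm in the shELOVL5 library (circles) and the shLuc library (squares), with the mean CPM limit of 50 dashed. The miR-365-3p sequence is the one above the limit in both libraries, at 126 CPM in shELOVL5 and 103 CPM in shLuc, and the rarest arms lie near 2 CPM.

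No member reached a 2-fold difference between the conditions. A microRNA was called expressed at a mean of at least 50 unscaled CPM and at least 100 counts over both libraries. Only the 2 names of the miR-365-3p sequence passed this limit, and 0 of them was at least 2-fold different, against 1.57% of the 191 expressed microRNAs that were at least 2-fold higher and 0% that were at least 2-fold lower. All 3 microRNAs behind the first share were below 50 CPM in shLuc and passed the limit through shELOVL5, where they were high. With the limit lowered to 20 counts over both libraries, chosen after seeing the data so that all 8 members pass, 0 members and 7.32% of 560 microRNAs were at least 2-fold different.

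The 3p arms of miR-365 and miR-193b were the members higher in the shELOVL5 library by more than the counting error of reads. ELOVL5 itself is not measured by these libraries. The ratio of hsa-miR-365b-3p was 1.23 (1.12 to 1.36), and that of hsa-miR-365a-3p, with the same sequence, 1.23 (1.11 to 1.36). The ratio of hsa-miR-193b-3p was 1.20 (1.02 to 1.40). Counting intervals lay above 1 for these 3 names, and for no other member. At this depth such an interval was common, since it lay above 1 for 31.9% and below 1 for 41.9% of the 191 expressed microRNAs. It lay above 1 for 21.2% and below 1 for 18.2% of the 560 with at least 20 counts. Of the 191, 24 had a higher ratio than hsa-miR-365b-3p.

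The main arm of the other miR-193 hairpin was close to level. hsa-miR-193a-5p had a ratio of 0.936 (0.783 to 1.12). Among 187 microRNAs with a mean between 10 and 200 CPM and at least 100 counts, the log2 ratio had a median of 0.042 and quartiles of -0.20 and 0.30. The log2 ratios of hsa-miR-193b-3p, at 0.26, and hsa-miR-193a-5p, at -0.095, both lay between these quartiles, and that of hsa-miR-365b-3p, at 0.30, lay just above the upper one.

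The rare arms had wide intervals that all included 1. hsa-miR-365a-5p had the lowest ratio of the members, 0.666 (0.419 to 1.05). A difference of at least 1.5-fold in either direction was found for 38.8% of the 214 microRNAs with 20 to 100 counts over both libraries. hsa-miR-365b-5p had a ratio of 0.947 (0.600 to 1.49), hsa-miR-193b-5p 0.778 (0.348 to 1.70) and hsa-miR-193a-3p 1.02 (0.435 to 2.38). At this depth a 2-fold lower level lay inside the intervals of hsa-miR-365a-5p, hsa-miR-193b-5p and hsa-miR-193a-3p, and a 2-fold higher level inside that of hsa-miR-193a-3p.

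**Figure D2:**
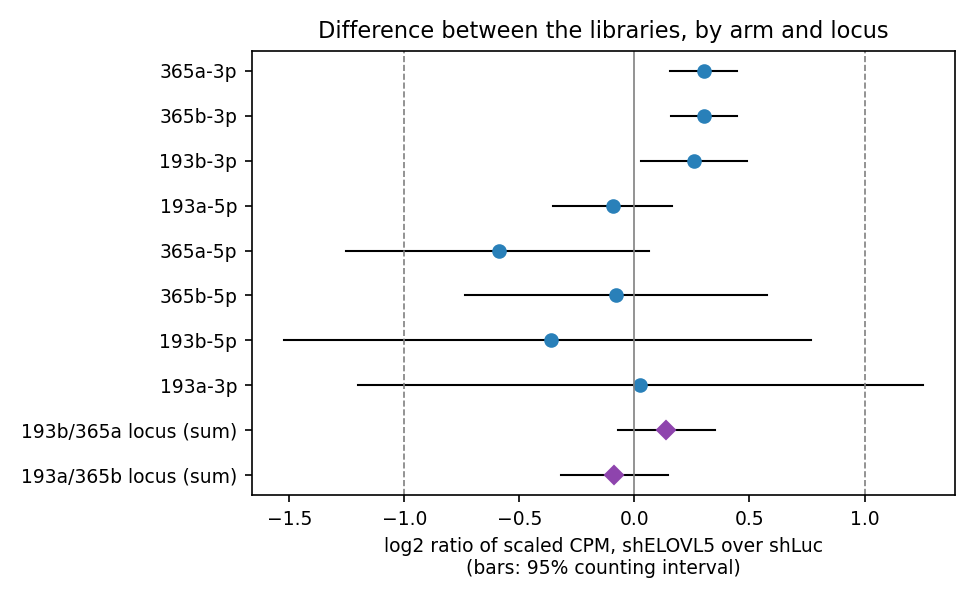
Log2 ratio of scaled CPM (shELOVL5 over shLuc) of each arm (circles) and of the summed arms of each locus (diamonds), with 95% counting intervals, 0 as a solid line and 2-fold as dashed lines. The 3p arms of miR-365 and miR-193b lie to the right of 0 with intervals that leave it out, at 0.30 and 0.26, while every other interval includes 0.

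The loci were compared through the arms that tell them apart, which leaves out the shared miR-365-3p sequence. The miR-193b/miR-365a locus on chromosome 16 had 389 such counts in shELOVL5 and 360 in shLuc, a ratio of 1.10 (0.951 to 1.27). The miR-193a/miR-365b locus on chromosome 17 had 294 in shELOVL5 and 318 in shLuc, a ratio of 0.941 (0.800 to 1.11). The first ratio over the second was 1.17 (0.938 to 1.46), an interval that includes 1 and does not depend on the scaling. With the miR-193 arms alone it was 1.25 (0.986 to 1.58). With the miR-365 5p arms alone the order turned, at 0.703 (0.365 to 1.35). The loci were therefore not resolved from each other.

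The miR-193 hairpins had most of their counts on opposite arms in both libraries. In miR-193a the 5p arm had 241 counts and the 3p arm 13 in shELOVL5, against 262 and 13 in shLuc. The 5p share was 94.9% in shELOVL5 (exact binomial interval 91.4 to 97.2%) and 95.3% in shLuc (92.1 to 97.5%). In miR-193b the 5p arm had 13 counts and the 3p arm 342 in shELOVL5, against 17 and 291 in shLuc. Its 5p share was 3.66% in shELOVL5 (1.96 to 6.18%) and 5.52% in shLuc (3.25 to 8.69%). The counts carrying the shared ACUGGCC seed of the 3p arms were thus almost wholly those of hsa-miR-193b-3p. It had 26.3 times the counts of hsa-miR-193a-3p in shELOVL5 and 22.4 times in shLuc. Across 190 hairpins with both arms counted and at least 100 counts, the 5p arm was the main one in 112 and the 3p arm in 78.

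Summed over both miR-365 hairpins, most counts lay on the 3p arm. The shared 3p reads cannot be assigned to a hairpin, so the arm use of each hairpin was not resolved. With the 5p arms of both hairpins summed and the shared 3p arm counted once, the 5p arms had 74 counts in shELOVL5 and 95 in shLuc. Their share was 7.82% in shELOVL5 (6.19 to 9.72%) and 11.7% in shLuc (9.53 to 14.1%). The 5p to 3p ratio in shELOVL5 over that in shLuc was 0.643 (0.461 to 0.896), or 1.55-fold lower in shELOVL5. If reads had been divided between the names, the 5p share would be 4.07% in shELOVL5 and 6.19% in shLuc, with the same ratio of 0.643 (0.464 to 0.889). These summed comparisons were chosen after the values were seen. Of 81 hairpins with 20 to 200 counts on the minor arm, 34.6% had a 5p to 3p ratio shifted by at least 1.5-fold in either direction, and 24 had a shift at least as large as that of miR-365. The 81 include the miR-193 and miR-365 hairpins, and hsa-mir-365a, set against the whole shared 3p count, is among the 24. Hairpins that share a mature sequence were counted separately.

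Against the whole shared 3p count, the same quantity was 0.540 (0.336 to 0.859) for hsa-miR-365a-5p and 0.768 (0.481 to 1.22) for hsa-miR-365b-5p. It was 0.651 (0.286 to 1.45) for miR-193b and 0.920 (0.384 to 2.20) for miR-193a. All 4 values lay below 1, as did 63% of the 81 hairpins with 20 to 200 counts on the minor arm, which include these 4. Of all 190 hairpins, 48.9% lay below 1. Of the 4 intervals, 3 include 1, and the miR-365 values share a 3p sequence.

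**Figure D3:**
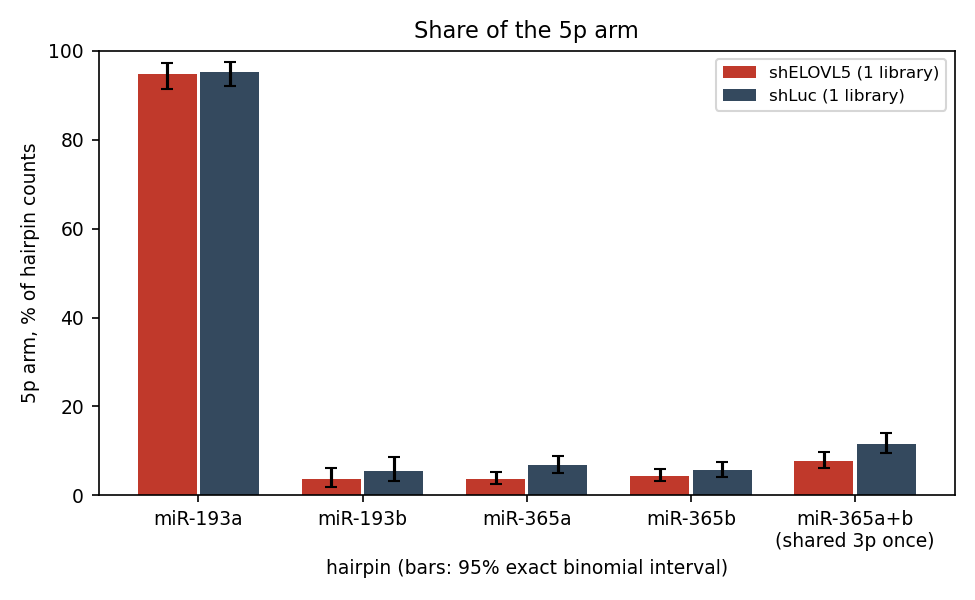
Share of each hairpin's counts on the 5p arm (%), in shELOVL5 (left bar of each pair) and shLuc (right bar), with exact binomial 95% intervals. The miR-193a bars stand near 95%, while the miR-193b, miR-365a and miR-365b bars stay below 7%. The miR-365a and miR-365b bars each use the whole 3p count under that name. Those reads cannot be assigned to a hairpin, so these bars are not a hairpin's own share. The last pair sums both miR-365 5p arms against their shared 3p arm counted once (7.82% in shELOVL5 and 11.7% in shLuc).

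The expressed microRNAs whose levels in the 2 libraries lay nearest to miR-365-3p were hsa-miR-10a-3p, hsa-miR-1269b and hsa-miR-505-3p. Their distances from it in log2 CPM over the 2 libraries were 0.078, 0.098 and 0.13. hsa-miR-10a-3p had 854 counts in shELOVL5 and 757 in shLuc, a ratio of 1.15 (1.04 to 1.27). hsa-miR-1269b had 827 counts in shELOVL5 and 690 in shLuc, a ratio of 1.22 (1.10 to 1.35). hsa-miR-505-3p had 832 counts in shELOVL5 and 775 in shLuc, a ratio of 1.09 (0.990 to 1.21). With only 2 libraries, such likeness means a like level and a like ratio and no more.

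Other microRNAs linked to fat cell differentiation, mostly from mouse work, were given as 2 lists beside these members. Of 21 listed as promoting it, 16 were expressed, of which 1 was at least 2-fold higher and 0 were at least 2-fold lower in shELOVL5, beside 1.57% and 0% of the 191 expressed microRNAs. The 1 was hsa-miR-455-3p, from a hairpin linked to brown fat in mice, with 721 counts in shELOVL5 and 237 in shLuc, a ratio of 3.10 (2.67 to 3.60). At 105 CPM in shELOVL5 and 33.8 CPM in shLuc, it passed the expression limit only through the library where it was high. The median log2 ratio of the 16 was 0.16, against -0.033 over all 191 expressed microRNAs. The most abundant were hsa-miR-21-5p at a ratio of 1.21, hsa-miR-26a-5p, from introns of the CTDSP phosphatase genes, at 0.891 and hsa-miR-30a-5p at 0.970.

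Of 18 listed as restraining differentiation, 9 were expressed and 0 were at least 2-fold different in either direction, beside 1.57% of the 191 expressed microRNAs. Their median log2 ratio was 0.19, so both lists, with opposite described roles, had medians on the same side of 0. In the promoting list 11 expressed microRNAs had a ratio above 1 and 5 below, against 5 and 4 in the restraining list. By name, some members of a list belong to the same family, such as the miR-30 arms or miR-27a and miR-27b. The members of a list are therefore not independent. hsa-miR-27b-3p, a repressor of the fat cell regulator PPARG, stood at 0.772 (0.766 to 0.778). Its paralog hsa-miR-27a-3p, on the same list, went the other way, at 1.24 (1.23 to 1.25). Of the other abundant ones, hsa-miR-221-3p stood at 0.973 and hsa-miR-125b-5p at 1.24 (1.23 to 1.26). The miR-365-3p log2 ratio of 0.30 lay inside the range of either list, which was -0.37 to 1.63 for the promoting list and -0.37 to 0.32 for the restraining one.

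**Figure D4:**
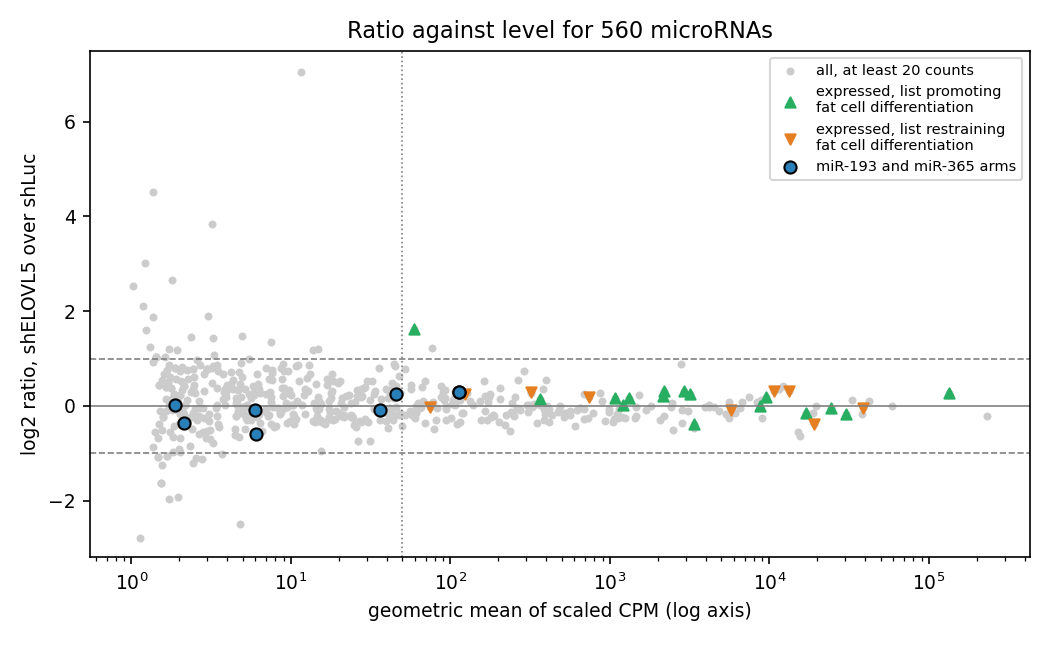
Log2 ratio (shELOVL5 over shLuc) against the geometric mean of scaled CPM (log axis) for the 560 microRNAs that reach 20 counts over both libraries, with 2-fold as dashed lines and 50 CPM as a dotted line. The miR-193 and miR-365 arms (outlined circles) lie within 2-fold among microRNAs of like level, and of both fat cell lists (triangles) only hsa-miR-455-3p, at 1.63, lies beyond 2-fold.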

How the data were processed

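The authors deposited unnormalized read counts, by precursor and mature arm, for 2 libraries. Per the submitters' processing notes the tools included FastQC 0.11.9, cutadapt 2.10 and Bowtie 1.1.1, and per the labels' protocols libraries came from a NEBNext small RNA kit. How reads with several matching microRNAs were counted, which bears on miR-365-3p, and how many mismatches were allowed is not given in the sources used here. No unique molecular identifiers are described, so amplification copies cannot be told from separate molecules. Intervals cover the counting error of reads only and may be too narrow. How evenly unlike sequences were captured was not tested, so levels of different arms are compared as counts only. The table's 2886 lines held 2656 mature names, and the highest row per name and library was kept; each member has 1 row. TMM factors (edgeR 4.0.16, R 4.3.3) were 1.01 for shELOVL5 and 0.988 for shLuc. Ratio intervals of each arm and each locus are from Clopper-Pearson intervals (scipy 1.17.1). The ratio of 1 locus over the other and the arm balance ratios have exact conditional odds ratio intervals.

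Members, lists and rules were chosen with earlier results of these data known. Named were the 8 members, each list's 3 most abundant expressed microRNAs and any at least 1.5-fold different. Also named were the 3 nearest in level to the expressed member and microRNAs sharing a seed. Markers and hsa-miR-27a-3p were named after their values were seen. The alternatives tried were scaling by library totals or by DESeq2 1.42.0 size factors, other filters, a 1.5-fold rule, 5 CPM added, summed precursor rows and other sets of arms. On simulated counts for shELOVL5 over shLuc (417 microRNAs, 3-fold changes), 100% of 95 changed and 0 of 99 unchanged expressed microRNAs were called, and the 95% intervals held the true ratio for 94.5%. Simulated noise was counting error only and the changes were 3-fold. The calls therefore say nothing on differences as small as those of the members.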

Additional observations from a re-analysis of the deposited data

How the results depend on the processing

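No paired analysis was possible because shELOVL5 and shLuc have 1 library each, which also left none to omit. The count of members at least 2-fold different stayed at 0 under every alternative, with 2 to 8 members tested. Over 40 pairs of a member and a setting (total counts, DESeq2 size factors, miR-365-3p counted once in the totals, 5 CPM added, summed precursor rows), 0 left the main counting interval. Scaling by library totals moved every log2 ratio by 0.036, and DESeq2, whose size factors were both 1, moved them by -0.026. Counting miR-365-3p once moved them by 0.00091. Summed precursor rows, of which each member has 1, changed only the totals, and took hsa-miR-193b-3p from 0.259 to 0.254. All these shifts are the same for every member and smaller than the reach of any member's interval. The settings other than the added 5 CPM therefore could not have moved a member out of its interval. Adding 5 CPM draws ratios toward 1, so it could have moved only members whose interval leaves 1 out. The log2 ratio of the miR-193b/miR-365a locus was 0.14, but -0.53 without the most abundant arm of each locus. The log2 difference of the loci was 0.22, but -0.47 without those arms and -0.51 with the miR-365 5p arms alone; the smaller counts widen its interval, which included 0 in each case. The median log2 ratio of the promoting list was 0.20 under total count scaling, against 0.16. That of the restraining list was 0.23 under total count scaling, 0.17 with DESeq2, and 0.13 both at a mean of at least 10 CPM and at 20 counts, the last chosen after seeing the data, against 0.19. Depth limits the arms under 100 counts, and the lack of replicates limits every comparison.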

Other observations

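Opposite main arms in lettered paralogs, as in miR-193a and miR-193b, were found in 7 of 20 families with at least 2 such hairpins of at least 100 counts (the first hairpin per letter, both arms counted in each library). This count was made after the miR-193 arms were seen. One example was miR-34, where hsa-mir-34b had 10 counts on the 5p arm and 297 on the 3p arm in shELOVL5, against 5 and 406 in shLuc. hsa-mir-34c had 2529 counts on the 5p arm and 111 on the 3p arm in shELOVL5, against 2914 and 133 in shLuc. The arms were taken over both libraries together, and 6 of the 7 families were opposite in each library. The exception was miR-29, where hsa-mir-29c had 169 counts on the 5p arm and 202 on the 3p arm in shELOVL5, against 219 and 181 in shLuc, so that in shELOVL5 its main arm was the 3p one, as in hsa-mir-29a and hsa-mir-29b-1.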
